A study of Saccharomyces cerevisiae with 6 samples.

Results

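The genes described here encode the subunits of SAGA and NuA4 other than Tra1, the scaffold protein that both complexes carry and that is altered in the mutants. They were chosen by name, 18 for SAGA and 12 for NuA4, and of these 30 genes 29 were read by a probe set that names a single gene, out of 5656 genes measured in all. The one without such a probe set was SUS1, a small subunit of the SAGA deubiquitinase, so 17 SAGA and 12 NuA4 genes have values. Each of the 29 was read by 1 probe set, none depended on a probe set shared with a second gene, and no filter on level was applied.

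The arrays measured total RNA of budding yeast grown untreated in YPD, a rich glucose medium. There were 3 groups of 2 arrays: wild type (WT), and M1 and M8, which the labels describe only as mutants defective in Gal4 interaction and the series title as mutants of Tra1. Strain background, the amino acid changes, and whether a wild-type TRA1 copy was also present were not stated in these sources. The same holds for whether duplicates came from separate cultures, so the p-values measure only the spread between arrays, which may be technical. Values are log2 levels as the authors deposited them, and a difference of 1 is a 2-fold change.

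SAGA and NuA4 are large coactivator complexes that sequence-specific activators bring to promoters, Gal4 being the classic example in yeast. SAGA acetylates histone H3 through Gcn5, removes ubiquitin from histone H2B through Ubp8, and helps load the TATA-binding protein. NuA4 acetylates histones H4 and H2A through Esa1, which unlike Gcn5 is essential for growth. Tra1 is the surface of each complex that activators contact, and the remaining subunits hold it, carry the enzymes or read chromatin marks.

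M1 replicate 2 stood apart from the other arrays. Over all genes the duplicates of M1 differed with an SD of 0.349, against 0.198 for WT and 0.142 for M8. The median tRNA gene lay 0.58 above the other arrays on M1 replicate 2 and 0.49 below them on M1 replicate 1 (-0.49). Of the 7 MATa-specific genes, 3 were lower in M1 and 2 in M8 at an unadjusted p under 0.05. The shares of all genes lower at that level were 3.47% and 2.32%. Limma called 0 of the 7. AGA2 (-0.57 in M1, -0.52 in M8), MFA1 (-0.52 and -0.59) and MFA2 (-0.40 and -0.22) lay below both WT arrays on all 4 mutant arrays. Of all genes 6.86% did so. The other MATa-specific genes were STE2 (-0.45 and 0.018), STE6 (-0.15 and -0.011), BAR1 (-0.31 and 0.024) and ASG7 (0.12 and 0.031). Among MATalpha-specific genes, SAG1 (-0.21 and -0.18) also lay below WT on all 4 mutant arrays. STE3 (0.17 and 0.18) lay above on all 4, as did 11.9% of all genes. The remaining MATalpha-specific genes were MF(ALPHA)1 (-0.13 and -0.20) and MF(ALPHA)2 (-0.21 and 0.14). The median level of the 7 MATa-specific genes was 8.54 on M1 replicate 2 and 8.99 to 9.19 on the other arrays. That of the 4 MATalpha-specific genes was 5.19 to 5.58. The part of any of these in the results below was not tested. Of TRA1 itself, the brightest probe set read 8.41 and 8.11 in WT, 8.49 and 8.79 in M1, and 8.85 and 8.59 in M8. The mutant arrays lay above both WT arrays, as they did for 11.9% of all genes. The differences were 0.38 in M1 and 0.46 in M8 (SE 0.17 for each). TRA1 was not called (limma adjusted p = 0.599 and 0.660). Only this probe set of TRA1 is described here.

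No subunit gene of either complex passed the test in either mutant. The difference from WT ran from -0.27 (SGF11) to 0.36 (SGF29) in M1 and from -0.31 (ADA2) to 0.32 (EAF1) in M8, so none reached 0.5 in either direction. Differences of that size were rare over all genes too, at 1.93% in M1 and 1.52% in M8. In M1, SGF11 stood at -0.51 without WT replicate 1, where 4.83% of all genes differed by more than 0.5. SGF29 stood at 1.09 without M1 replicate 1, where 8.66% of all genes did. The SAGA median was -0.015 in M1 and -0.011 in M8, and the NuA4 median was 0.036 in M1 and 0.0049 in M8, beside medians over all genes of 0.012 and 0.029. In M1, 8 SAGA genes lay above WT and 9 below, and 7 NuA4 genes lay above and 5 below. In M8 the split was 8 above and 9 below for SAGA and 6 to 6 for NuA4. RNA was taken from whole cultures, so a smaller number of cells with a message and less message per cell cannot be told apart.

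Counted by limma at an adjusted p under 0.05, 0 of the 17 SAGA and 0 of the 12 NuA4 genes were called in M1, in M8, or between M8 and M1, where 0% of all genes were called in each. For the mean of both mutants 0 members were called against 0.0707% of all genes. The ordinary linear model also called 0 members. At an unadjusted p under 0.05, M1 had 0 members in either direction, against 5.11% of all genes higher and 3.47% lower. M8 had 1 SAGA gene (SPT3) and 1 NuA4 gene (EAF1) higher and 0 lower, against 4.74% and 2.32% of all genes. For the mean of both mutants there were 0 in either direction, against 5.25% and 2.74%.

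The intervals give a range for each gene's difference. They were not adjusted for the number of genes and are not a detection limit. In M8 those of SPT3 and EAF1 excluded 0, yet neither gene was called. A gene's variance was pooled over WT, M1 and M8, so its half-width was the same in both mutants. The M1 duplicates spread more (SD 0.349 over all genes, against 0.198 for WT and 0.142 for M8). The M1 intervals may therefore be too narrow and those of M8 too wide. By limma's 95% interval, the difference from WT lay within a 2-fold change in either direction for 16 of 17 SAGA genes in M1 and all 17 in M8, and for all 12 NuA4 genes in both. The exception was SGF29 in M1, with an interval from -0.53 to 1.26. Half-widths ran from 0.25 to 0.90 among SAGA genes and from 0.25 to 0.38 among NuA4 genes. Within the narrower bound of 0.5 lay 10 SAGA genes in each mutant, and 10 NuA4 genes in M1 and 8 in M8.

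**Figure D1:**
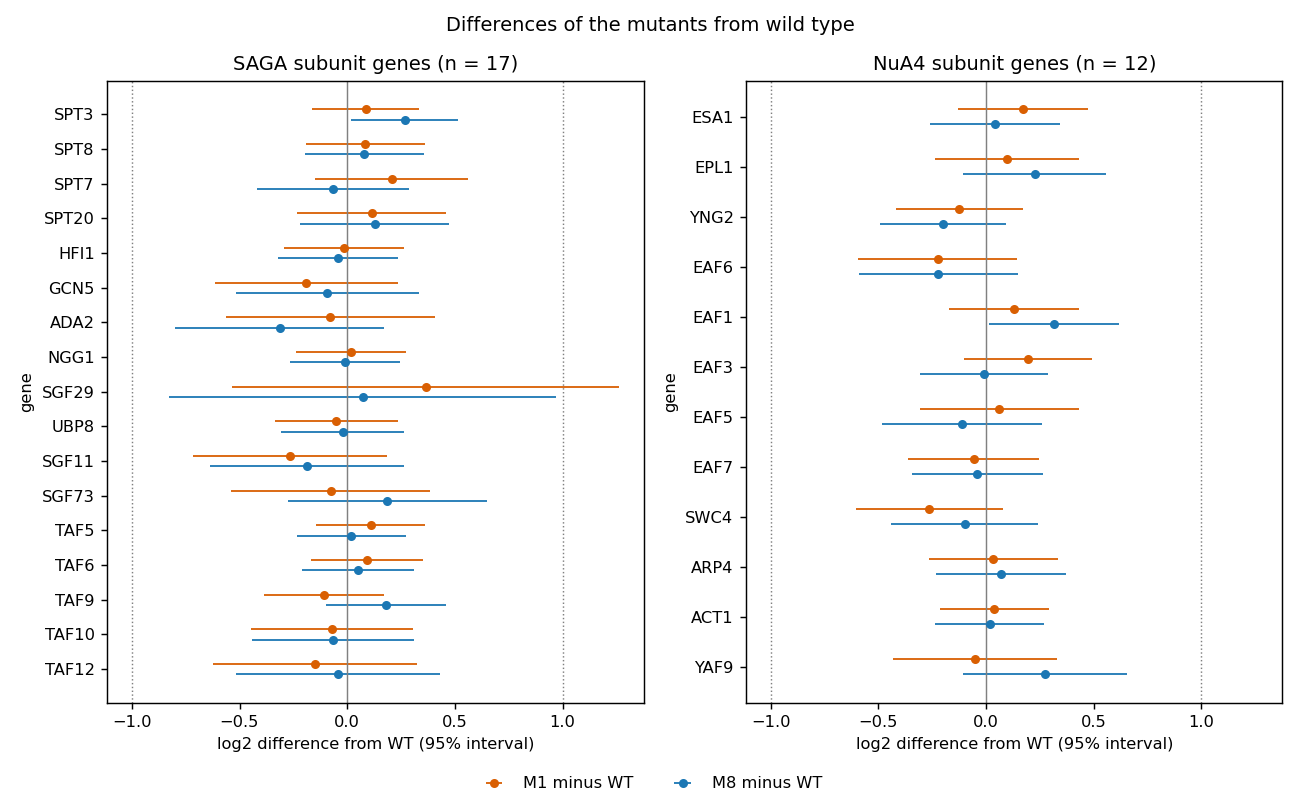
Log2 difference from WT for each measured subunit gene (points) with its 95% interval from limma (lines), M1 in orange and M8 in blue, SAGA on the left and NuA4 on the right; dotted lines mark a 2-fold change. All points lie between -0.31 and 0.36, and SGF29 in M1 is the one interval that passes 2-fold; both mutants are compared with the same WT arrays.

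SAGA's TBP-binding subunits come first. SPT3, whose product contacts the TATA-binding protein, read 5.81 and 5.86 in WT, 5.92 and 5.92 in M1, and 6.08 and 6.12 in M8. It was the only one of the 29 genes whose 4 mutant arrays all lay above both WT arrays. M8 was the highest group, and M8 and M1 did not overlap. The difference from WT was 0.27 (SE 0.11) in M8, a 1.20-fold higher level with an interval from 0.02 to 0.51 and limma adjusted p = 0.671, and 0.087 (SE 0.11) in M1. Among all genes, 11.9% had all mutant arrays above WT and 6.86% had all below, and of the other 28 subunit genes none did either. SPT3 was among the dimmest 25% of genes by mean level, as were 7 other members (GCN5, NGG1, SGF29, UBP8, TAF12, EPL1, EAF6). Its unadjusted call in M8 was lost when any WT or M8 array was left out. SPT8, the partner of Spt3 in TBP binding, overlapped between groups, with an M1 difference of 0.083 and an M8 difference of 0.079 (SE 0.12 for each).

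The core scaffold of SAGA is built on Spt7, Spt20 and Hfi1, around which the other modules assemble. SPT7 read 7.89 and 7.88 in WT, 7.88 and 8.31 in M1, and 7.84 and 7.81 in M8, so it was level on every array except M1 replicate 2. SPT20 read 6.28 and 6.16 in WT, 6.14 and 6.53 in M1, and 6.35 and 6.34 in M8, again highest on M1 replicate 2. HFI1 stayed between 6.06 and 6.24 on all arrays. The differences from WT were 0.21 (SE 0.15), 0.11 (SE 0.15) and -0.015 (SE 0.12) in M1, and -0.066, 0.13 and -0.045 in M8, in the same order.

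The acetyltransferase module had the widest gap between M1 duplicates of any module, with a median of 0.624. It comprises the enzyme Gcn5 with Ada2 and Ngg1 (Ada3), which it needs to act on nucleosomes, and Sgf29, a reader of methylated histone H3. GCN5 read 5.93 and 6.05 in WT, 6.09 and 5.52 in M1, and 5.87 and 5.93 in M8. M1 replicate 2 was the lowest array and M1 replicate 1 the highest. Both M8 arrays lay below WT, replicate 2 only narrowly, at 5.926 beside 5.934 on WT replicate 1. For GCN5 the M1 difference was -0.19 and the M8 difference -0.093, each with an SE of 0.18.

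SGF29 read 5.01 and 4.92 in WT, 4.60 and 6.05 in M1, and 5.08 and 4.99 in M8. Its M1 duplicates were the lowest and the highest of the 6 arrays, 1.45 apart, while WT and M8 duplicates were within 0.1 of each other. The M1 difference of 0.36 (SE 0.39) therefore averages values on opposite sides of WT. With M1 replicate 2 alone it was 1.09, and with M1 replicate 1 alone it was -0.36. SGF29 was the dimmest of the measured subunit genes, with a mean level of 5.11. The dimmest 25% of genes reached up to 6.02. Among all probe sets, including those that name no gene, it stood at the 32.1 percentile by mean level. Whether its signal stood above background was not tested.

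ADA2 read 7.03 and 6.87 in WT, 6.54 and 7.21 in M1, and 6.70 and 6.57 in M8. M8 lay below WT on both arrays, M1 replicate 1 was lower still, and M1 replicate 2 was the highest array of all. The differences from WT were -0.31 (SE 0.21) in M8 and -0.079 (SE 0.21) in M1. NGG1, by contrast, ranged over only 0.12 on the 6 arrays, with differences of 0.017 and -0.011.

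The deubiquitinase module, Ubp8 with its activators Sgf11 and Sus1 and the anchor Sgf73, was measured for 3 genes. UBP8 read 5.82 and 5.69 in WT, 5.61 and 5.81 in M1, and 5.77 and 5.70 in M8, and the groups overlapped, with differences of -0.050 (SE 0.12) and -0.021 (SE 0.12). SGF11 read 6.34 and 6.82 in WT, 6.51 and 6.11 in M1, and 6.35 and 6.43 in M8. WT replicate 2 was its highest array, and the WT duplicates differed by 0.48, the largest WT gap among the subunit genes. Its M1 and M8 differences of -0.27 and -0.19, each with an SE of 0.19, became -0.026 and 0.056 without WT replicate 2. SGF73 read 6.39 and 6.56 in WT, 6.69 and 6.11 in M1, and 6.53 and 6.80 in M8, with M1 replicate 2 the lowest array. Its differences were -0.077 (SE 0.20) and 0.19 (SE 0.20).

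The TAFs of SAGA also belong to the general factor TFIID, so their messages serve both. TAF9, a histone-fold subunit, read 8.79 and 8.84 in WT, 8.82 and 8.60 in M1, and 8.998 and 8.992 in M8. Both M8 arrays lay above all others, and the M8 difference from WT was 0.18 (SE 0.12). Between M8 and M1 TAF9 differed by 0.29 (SE 0.12, limma adjusted p = 0.721), the only member at an unadjusted p under 0.05 there, and it kept that level only when M1 replicate 1 was the array left out. In that comparison 4.12% of all genes were higher at that level and 2.32% lower. TAF12, the histone-fold partner of Hfi1 in SAGA, read 6.01 and 6.09 in WT, 6.24 and 5.57 in M1, and 6.06 and 5.96 in M8, with the M1 arrays at both extremes. TAF10 read 8.84 and 8.97 in WT, 8.60 and 9.07 in M1, and 8.83 and 8.84 in M8, with the M1 arrays again outermost. TAF5, a scaffold with WD40 repeats, and TAF6, the histone-fold partner of Taf9, ranged over 0.17 and 0.19, and their differences lay between 0.018 and 0.11.

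**Figure D2:**
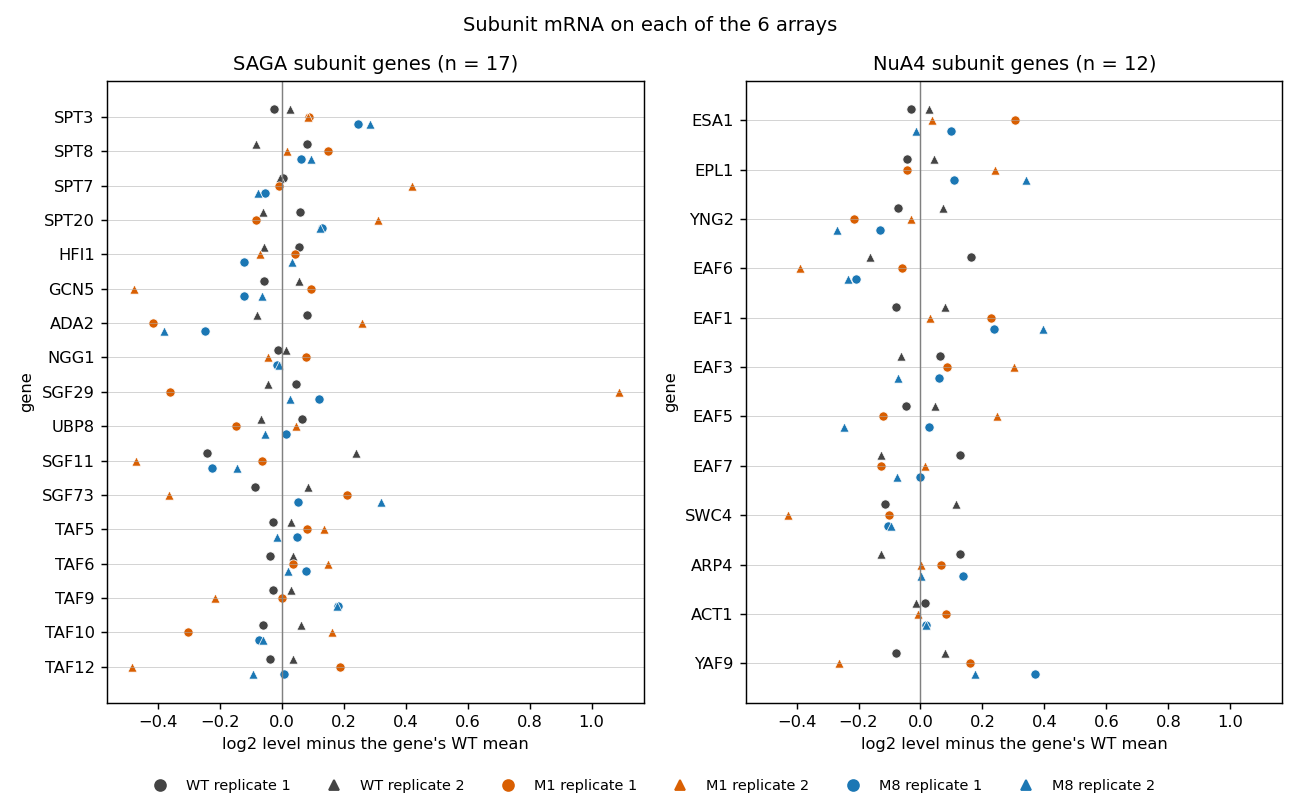
Log2 level of each measured subunit gene on each array minus the gene's WT mean, SAGA on the left and NuA4 on the right; grey, orange and blue mark WT, M1 and M8, circles replicate 1 and triangles replicate 2. The widest separation is between the M1 duplicates of SGF29 (1.45), and SPT3 is the one gene with all 4 mutant points to the right of both WT points.

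In NuA4, the catalytic core called piccolo contains Esa1, the scaffold Epl1, the PHD-finger protein Yng2 and the small subunit Eaf6. ESA1 read 6.31 and 6.37 in WT, 6.64 and 6.38 in M1, and 6.44 and 6.32 in M8. M1 lay above WT, by a margin of 0.01 on replicate 2, and M8 overlapped WT. The M1 difference was 0.17 and the M8 difference 0.041, each with an SE of 0.13. EPL1 read 5.71 and 5.80 in WT, 5.71 and 5.99 in M1, and 5.86 and 6.10 in M8, so M8 lay above WT and M1 overlapped it, with differences of 0.23 (SE 0.14) in M8 and 0.098 (SE 0.14) in M1.

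The other piccolo genes lay on the lower side. EAF6 read 5.75 and 5.43 in WT, 5.53 and 5.20 in M1, and 5.38 and 5.36 in M8. WT replicate 1 was its highest array, M8 lay below both WT arrays, and the differences were -0.22 (SE 0.16) in both mutants. Without WT replicate 1 the M8 difference was -0.059. YNG2 had differences of -0.12 and -0.20 (SE 0.13 for each), and its M8 arrays lay below WT.

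EAF1 encodes the platform that joins the NuA4 modules and is found in no other complex. It read 6.63 and 6.79 in WT, 6.94 and 6.74 in M1, and 6.95 and 7.11 in M8. Both M8 arrays lay above all WT and M1 arrays, while M1 overlapped WT. The M8 difference was 0.32 (SE 0.13), a 1.24-fold higher level with an interval from 0.01 to 0.62 and limma adjusted p = 0.687, and the M1 difference was 0.13 (SE 0.13). Its unadjusted call in M8 was lost when any WT or M8 array was left out, with each array centred on its median, and in the ordinary linear model.

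Eaf3, Eaf5 and Eaf7 form the TINTIN module, and Eaf3, whose chromodomain binds methylated histone H3, also serves the Rpd3S deacetylase. EAF3 lay above WT on both M1 arrays, by 0.19 (SE 0.13), and overlapped WT in M8 (-0.0075). EAF5 differed by 0.062 and -0.11 and EAF7 by -0.057 and -0.040 in M1 and M8, with overlapping arrays.

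The remaining NuA4 subunits, Swc4, Arp4, actin and Yaf9, are shared with the SWR1 remodeller, which deposits the histone variant H2A.Z. SWC4 read 6.33 and 6.56 in WT, 6.35 and 6.02 in M1, and 6.34 and 6.35 in M8. M1 replicate 2 was the lowest array, the other mutant arrays were level with WT replicate 1, and the M1 and M8 differences were -0.26 and -0.10, each with an SE of 0.15. YAF9, a YEATS-domain reader, read 6.84 and 6.998 in WT, 7.08 and 6.65 in M1, and 7.29 and 7.09 in M8. M8 lay above WT and M1, with M8 differing from WT by 0.27 (SE 0.16) and from M1 by 0.32 (SE 0.16, limma adjusted p = 0.721). ACT1, the actin gene and the brightest member, ranged over only 0.10, and ARP4 over 0.26.

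Whether the arrays of a mutant were separate from WT was counted for each gene. Both M1 arrays exceeded the higher WT array for 2 SAGA genes (SPT3, TAF5) and 2 NuA4 genes (ESA1, EAF3), while 22% of the 5656 genes did so. For 0 members were both M1 arrays below WT, while this held for 13.5% of the 5656. In M8, 3 SAGA genes (SPT3, SPT20, TAF9) and 4 NuA4 genes (EPL1, EAF1, ACT1, YAF9) lay above, against 29%, and 3 SAGA genes (SPT7, GCN5, ADA2) and 2 NuA4 genes (YNG2, EAF6) below, against 19.1%. As shares of the members this is 17.6% of SAGA and 33.3% of NuA4 above and 17.6% and 16.7% below. The NuA4 share above WT lay a little above the share over all genes, but only with ACT1 counted. The M8 arrays of ACT1 read 13.7075 and 13.7089, beside 13.7067 on WT replicate 1. The other 3 shares lay below theirs. Between the mutants, M8 lay above M1 for SPT3, TAF9, EAF1 and YAF9 and below for SPT7, TAF5 and EAF3, against 19.5% and 18.4% of all genes.

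Fitted without the M1 arrays, M8 and WT had a smaller spread and 0.407% of all genes were called, yet 0 members were. At an unadjusted p under 0.05, SPT3, EAF1 and YAF9 were then higher, against 10.2% of all genes, and ADA2 was lower, against 5.91%. Their adjusted p by limma lay between 0.207 (ADA2) and 0.271 (YAF9).

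Set against each other, the complexes had nearly the same medians. The SAGA median minus the NuA4 median was -0.051 in M1, -0.016 in M8, -0.0067 between M8 and M1, and -0.0036 for the mean of both mutants. In M1 its sign turned without either M1 array. In M8 it turned without WT replicate 2, without M8 replicate 1, and to 0.013 with the dimmest 25% of genes left out. The median of the absolute differences was 0.093 for SAGA and 0.11 for NuA4 in M1, and 0.073 and 0.105 in M8, against 0.127 and 0.111 over all genes.

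The complexes stood further apart in how the M1 duplicates compared. The median absolute difference between M1 duplicates was 0.391 for SAGA, 0.241 for NuA4 and 0.203 over all genes, while for WT it was 0.111, 0.151 and 0.127, and for M8 0.060, 0.133 and 0.089. In M1, 5 of 17 SAGA genes (GCN5, ADA2, SGF29, SGF73, TAF12) differed by more than 0.5 between duplicates, or 29.4%, against 0 of 12 NuA4 genes and 13.4% of all genes. GCN5, SGF29 and TAF12 were among the dimmest 25% of genes, while ADA2 and SGF73 were not. The M1 duplicates fell on opposite sides of both WT arrays for 9 SAGA genes (SPT7, SPT20, GCN5, ADA2, NGG1, SGF29, SGF73, TAF10, TAF12), or 52.9%, for 2 NuA4 genes (EAF5, YAF9), or 16.7%, and for 25.4% of all genes. In M8 no SAGA or NuA4 gene did so, against 7.58% of all genes. These shares describe 1 pair of arrays, and the difference between the complexes was not tested. No margin was required for opposite sides, among members or over all genes. SPT7 read 7.881 on M1 replicate 1 beside 7.884 on WT replicate 2, and SPT20 read 6.137 beside 6.159 on the same arrays. NGG1 ranged over only 0.12 on all arrays.

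M1 replicate 2 was the array farthest from a gene's mean for 10 of 17 SAGA genes and 4 of 12 NuA4 genes, against 40.2% of all genes. The direction was mixed. SAGA genes were higher on replicate 2 in 8 cases and lower in 9. Within NuA4, the 3 TINTIN genes were all higher on replicate 2 and the 4 genes shared with SWR1 all lower, a split noticed after the values were seen. Over all genes 2231 were higher and 3425 lower on replicate 2.

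**Figure D3:**
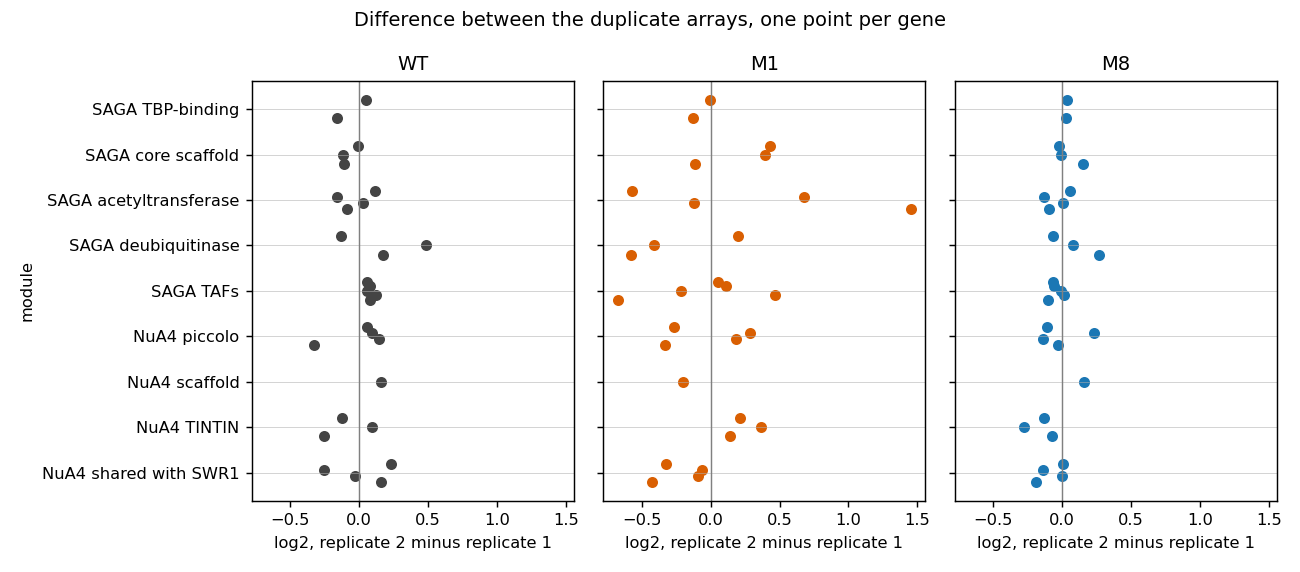
Log2 level on replicate 2 minus replicate 1 for each measured subunit gene (points), by module, in WT, M1 and M8. M1 points spread from -0.67 (TAF12) to 1.45 (SGF29), WT points reach 0.48 (SGF11) and M8 points -0.28 (EAF5).

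**Figure D4:**
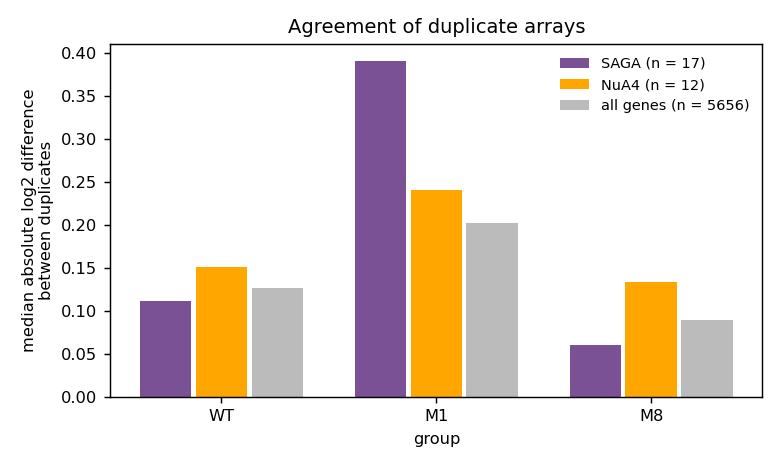
Median absolute log2 difference between the duplicate arrays in each group for SAGA genes (n = 17), NuA4 genes (n = 12) and all genes (n = 5656). SAGA stands at 0.391 in M1 against 0.203 for all genes, and is the lowest of the 3 bars in WT (0.111) and M8 (0.060).

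The calls changed with the M1 array used. The genes named next were singled out after their values were seen. Without M1 replicate 1, which leaves replicate 2 alone for M1 and assumes that it varies like the other groups, limma called SGF29 (1.09, adjusted p = 0.0114) and TAF12 (-0.48, adjusted p = 0.0482) in M1, where 6.75% of all genes were called. Between M8 and M1 it then called SPT7, ADA2 and SGF29 lower in M8 and SGF73, TAF12 and YAF9 higher, where 13.2% of all genes were called. For the mean of both mutants limma called SGF29 (0.58, adjusted p = 0.0399), where 0.902% of all genes were called. Without M1 replicate 2, or without any other single array, 0 members were called in any comparison.

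Related chromatin complexes were set beside these. Genes of other histone acetyltransferases and their partner proteins had medians of 0.048 in M1 and 0.083 in M8 over 14 genes. Of these, 0 were called by limma and 0 had an unadjusted p under 0.05. Their largest differences were HIF1 (0.17) and HPA2 (0.14) in M1 and SAS5 (0.24) and HIF1 (0.23) in M8. The 3 partners of the SLIK and ADA variants of SAGA had medians of -0.026 and -0.13, led by AHC1 (0.18) and AHC2 (-0.16) in M1 and RTG2 (-0.16) and AHC1 (0.13) in M8. The 11 SWR1 genes had medians of 0.068 and 0.050, led by the ATPase gene SWR1 (0.28) and the H2A.Z gene HTZ1 (-0.27) in M1, of which HTZ1 was the 1 gene at an unadjusted p under 0.05 (3.47% of all genes were lower at that level), and by VPS71 (-0.18) and RVB2 (-0.16) in M8. The 13 INO80 genes had medians of 0.056 and 0.0036, led by IES2 (0.24) and ARP5 (0.20) in M1 and NHP10 (0.21) and INO80 (0.16) in M8. Of 25 genes of histone deacetylases and their partner proteins 18 lay above WT in each mutant, beside 52.7% (M1) and 57% (M8) of all genes. Their medians were 0.064 and 0.059. HDA3 (0.27) and SET3 (0.24) led in M1. DEP1 (0.40, SE 0.15) and HOS2 (-0.30, SE 0.12) led in M8 and were the 2 at an unadjusted p under 0.05 there, a level at which 4.74% of all genes were higher and 2.32% lower. None of these genes was called by limma in any comparison.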

How the data were processed

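Biotin-labelled total RNA was hybridised to Affymetrix arrays. The authors deposited log2 expression values for 9275 probe sets on 6 arrays, and the submitters' processing notes name RMA and oligo, with no versions. Gene names came from GEO's platform annotation, updated through RefSeq (R64): 6504 probe sets named 1 gene, 328 several and 2443 none. Where a gene had several probe sets (315 genes), the one with the highest mean was used.

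Groups were compared with limma 3.58.1 in R 4.3.3 (lmFit and eBayes on group means, all 6 arrays, 3 residual degrees of freedom), with Benjamini-Hochberg adjustment over 5656 genes and calls at an adjusted p under 0.05. The procedure was tested on simulated data, and the outcome is not given here. The small number of arrays limits the precision. The members and lists were chosen with earlier results of these data known. Every member was named. Array values were given for those of largest difference in either direction in each complex for the mean of both mutants, for those at an unadjusted p under 0.05, and for the catalytic subunits; others with array values (SPT7, SPT20, SGF73, TAF10, TAF12, YAF9) were added after seeing them. The alternatives varied scaling, the filter on dim genes, the choice of probe set, the variance model, the arrays fitted and the replicate block. No sequence was analysed here.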

Additional observations from a re-analysis of the deposited data

How the results depend on the processing

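With 2 arrays a group, single arrays set much of what could be called. Under every alternative that kept all arrays of the groups compared, 0 subunit genes were called. The calls over all genes moved more. In M1 minus WT they rose from 0 to 3 with each array centred on its median, with the dimmest 25% of genes left out, with probe sets averaged and with a trended robust variance. In M8 minus WT they were 23 with only the groups compared. For the mean of both mutants the 4 calls became 0 under quantile normalization, with all one-gene probe sets adjusted, in the ordinary linear model and with the replicate block. The labels state a completely randomized design with duplicates, so the main fit treated same-numbered arrays as sharing only a number. Same-numbered arrays of WT and M1 deviated in opposite directions (r = -0.306) and those of WT and M8 together (r = 0.297). Those of M1 and M8 were weakly apart (r = -0.111). These values alone do not exclude a pairing of WT with M8. With the replicate block 0 members were called, and the unadjusted M8 calls of SPT3 and EAF1 and the M8 minus M1 call of TAF9 were lost. TAF9 also lost it under quantile normalization, with all one-gene probe sets and with only the groups compared. The SAGA median under median centring was -0.040 in M1, -0.031 in M8 and 0.014 for the mean of both, and without the dimmest genes, which leaves 21 of 29 members, it was 0.018 in M8 and 0.055 for the mean.

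Leaving out 1 array at a time, calls over all genes ran from 0 to 382 in M1 minus WT, 0 to 23 in M8 minus WT, 0 to 748 in M8 minus M1 and 0 to 132 for the mean of both. SAGA calls ran from 0 to 2, stayed at 0, and ran from 0 to 5 and from 0 to 1 in that order, and NuA4 calls ran from 0 to 1 in M8 minus M1; all these member calls arose without M1 replicate 1. The SAGA median ran from -0.015 to 0.047, -0.011 to 0.013, -0.025 to 0.027 and 0.0015 to 0.035, and the SAGA minus NuA4 median from -0.051 to 0.039, -0.034 to 0.036, -0.031 to 0.031 and -0.064 to 0.012, in the same order. The NuA4 median in M8 ran from -0.044 to 0.044. The sign of the difference turned in at least 1 of these fits for 18 of 29 members in M1 and 13 in M8, and under the other alternatives for 1 and 2. The cause of these shifts was not tested.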
